A study of Homo sapiens with 19 samples.

Results

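Chemoattractant receptors let a leukocyte find its way along a gradient of chemokine, complement fragment, formylated peptide or leukotriene, and 9 of their genes are described here in a human leukaemia line. The 9 were a named list, taken by what they encode, out of 20020 protein-coding genes of GENCODE release 44. They are the chemokine receptor genes CCR1, CCR2, CXCR4 and CX3CR1, the complement receptor genes C3AR1 and C5AR1, the formyl peptide receptor genes FPR1 and FPR2, and LTB4R, the gene of a leukotriene B4 receptor. The cells were MOLM-13, an established acute myeloid leukaemia line, and histone marks were mapped by CUT&RUN, in which an antibody-tethered nuclease frees the DNA that carries a mark. Cells had received Corin at 0.1 µM for 24 h or the vehicle DMSO for 24 h, for which the labels print the same 0.1 µM. Corin is a dual inhibitor that acts on the CoREST complex, blocking its demethylase LSD1 as well as its histone deacetylases. For each of H3K27ac, H3K4me2 and H3K4me3 there were 2 Corin and 2 DMSO libraries, 12 in all; the other 7 libraries of the series were not analysed here. The comparison asked where these marks lie at the receptor genes after CoREST inhibition.

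All of these receptors span the membrane, couple mainly to inhibitory G proteins and trigger directed movement of neutrophils, monocytes or progenitor cells. G protein-coupled receptor kinases and arrestins then switch them off. CCR2 and CX3CR1 are known for marking monocyte subsets, FPR1, FPR2 and C5AR1 for mature phagocytes, and CXCR4 for holding blood progenitors in the bone marrow through its ligand CXCL12. H3K27ac marks active promoters and enhancers, H3K4me2 marks promoters and enhancers and is removed by LSD1, and H3K4me3 lies mostly at active promoters.

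The measure throughout is the number of base pairs (bp) under called peaks, summed within 10 kb either side of the transcription start site (TSS) of the canonical transcript, or over the annotated gene body. The lists held 30029 to 34424 peaks after Corin and 17599 to 19995 after DMSO for H3K27ac, 40042 to 41152 and 30896 to 32299 for H3K4me2, and 11757 to 11883 and 11104 to 11343 for H3K4me3. Coverage was therefore recomputed with every list of a mark cut to the same number of peaks by score, 17599, 30896 and 11104 in turn. Sequencing depth cannot be read from the lists, and the labels give only a minimum of 5000000 reads per sample. These are bulk libraries, so a mark in more cells and more of a mark per cell cannot be told apart. SPI1, CEBPA, FLT3, HOXA9 and CD33, 5 of 13 myeloid leukaemia markers, had a peak of each mark within 1 kb of the TSS in all 12 libraries, and 8 of 13 T and NK cell, erythroid and epithelial markers had none in any library, among them CD3E and GATA1. The other 5, NKG7, CD8A, EPOR, EPCAM and KRT8, did have such peaks, and so did CD79A, a B cell marker, for H3K4me2 in 4 libraries and for H3K27ac in 3. Of the myeloid markers CEBPE, MPO and ITGAM had no H3K4me3 within 1 kb in any library. What part these markers play in the results was not tested.

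The 9 genes fell into 3 kinds by their promoters, the 1 kb either side of the TSS. CXCR4 and LTB4R carried H3K4me2 and H3K4me3 there in all 4 libraries of either mark. CCR2, CCR1, C3AR1 and CX3CR1 carried H3K4me2 in all 4 libraries, with H3K4me3 in 3 libraries at CCR2, in 1 at CCR1, and in none at C3AR1 and CX3CR1. FPR1, FPR2 and C5AR1 had no H3K4me2 in either DMSO library and no H3K4me3 in any library. Thus 6 of 9 promoters had H3K4me2 in all 4 libraries, beside 58.9% of all 20020 genes, and 2 of 9 had H3K4me3 in all 4, beside 48.4%. H3K4me2 in all 4 libraries with H3K4me3 in none, the state of C3AR1 and CX3CR1, was held by 8.02% of genes. H3K27ac was in all 4 libraries at 2 of 9 promoters, CCR2 and LTB4R, beside 25.8% of genes.

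After Corin, the receptor genes most often had more sequence under H3K27ac and H3K4me2 peaks, but so did much of the genome. Within 10 kb of the TSS, H3K27ac coverage was higher in both Corin libraries than in both DMSO libraries at 5 of the 9 genes (CCR1, CCR2, CXCR4, CX3CR1 and LTB4R) and lower at 0. Of the 10666 genes with any H3K27ac coverage, 54.5% were higher by the same rule and 0.591% were lower. H3K4me2 coverage was higher without overlap at 6 of 9 (FPR2, C3AR1, CCR1, CCR2, CX3CR1 and LTB4R) and lower at 0, against 39.6% and 3.91% of 14251 covered genes. H3K4me3 was higher at 2 of 9 (CCR2 and LTB4R) and lower at 0, against 25.8% and 8.38% of 11398 covered genes. C5AR1 had no H3K27ac coverage in any library, and FPR1, FPR2, C5AR1, C3AR1 and CX3CR1 had no H3K4me3 coverage. The median difference over the 9 genes was 544.5 bp for H3K27ac, 778 bp for H3K4me2 and 0 bp for H3K4me3, beside 0, 61 and 0 bp over all 20020 genes and 445, 230 and 63.5 bp over covered genes.

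At a matched number of peaks the counts were 3 of 9 for H3K27ac (CCR1, CXCR4 and LTB4R), 6 of 9 for H3K4me2 and 2 of 9 for H3K4me3, where 35.0%, 31.2% and 24.5% of covered genes were higher. Of the 9 receptor genes, 7, 8 and 3 were then covered. Scaling each library to its total covered length moved the median log2 ratio of all covered genes from 0.79 to -0.04 for H3K27ac and from 0.15 to -0.19 for H3K4me2. On that scale H3K27ac was higher at 3 receptor genes (CCR1, CXCR4 and CX3CR1) and lower at LTB4R, where 16.4% of covered genes were higher and 25.0% lower. H3K4me2 was then higher at 3 (FPR2, C3AR1 and CCR2) and lower at CXCR4 and LTB4R, where 9.66% of covered genes were higher and 46.1% lower.

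No receptor gene passed the test across all genes (limma, adjusted p under 0.05) for any mark. The test called 0.0% of covered genes for H3K27ac, 0.14% (20 genes) for H3K4me2 and 0.0% for H3K4me3. Those 20 calls became 0 at a matched number of peaks, at a score of at least 100, on log2 values, in the 5 kb and 1 kb windows, over gene bodies and without any 1 library. For H3K27ac the 0 calls became 1088 without Corin replicate 1 and 1305 without Corin replicate 2. The H3K4me2 calls instead numbered 39 when scaled to total covered length, 49 among genes with a mean of at least 500 bp and 22 around the gene 5′ end. At an unadjusted p under 0.05 the test in the 10 kb window held 4 of the 9 receptor genes as higher for H3K27ac, 4 for H3K4me2 and 2 for H3K4me3, beside 22.9%, 13.9% and 5.78% of covered genes. With the replicate number as a block, limma passed CCR1, CCR2 and CXCR4 for H3K27ac, C3AR1 and CCR2 for H3K4me2, and none for H3K4me3, while it called 13.7%, 4.63% and 0.0% of covered genes. An exact permutation test of 2 libraries against 2 cannot reach 0.05, since its smallest two-sided p is 2 of 6 arrangements.

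**Figure D1:**
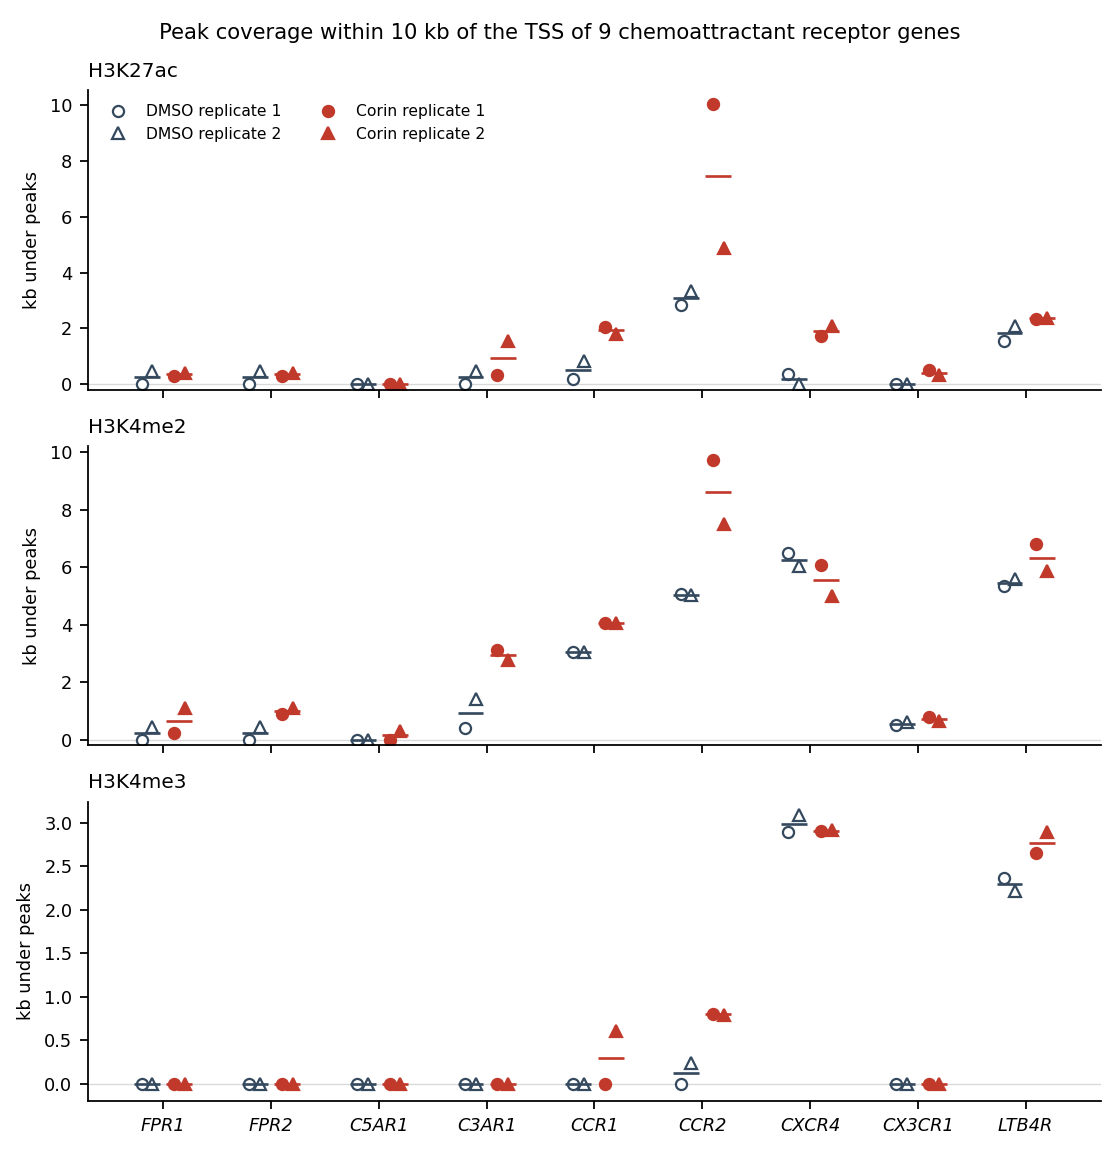
Peak coverage in kb (y axis) within 10 kb of the TSS of each receptor gene (x axis), for H3K27ac, H3K4me2 and H3K4me3 from top to bottom. Points are libraries (filled, Corin; open, DMSO; circles, replicate 1; triangles, replicate 2) and bars are group means, n = 2. CCR2 has the widest coverage of H3K27ac and H3K4me2 after Corin, and CXCR4 and LTB4R hold most of the H3K4me3.

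**Figure D2:**
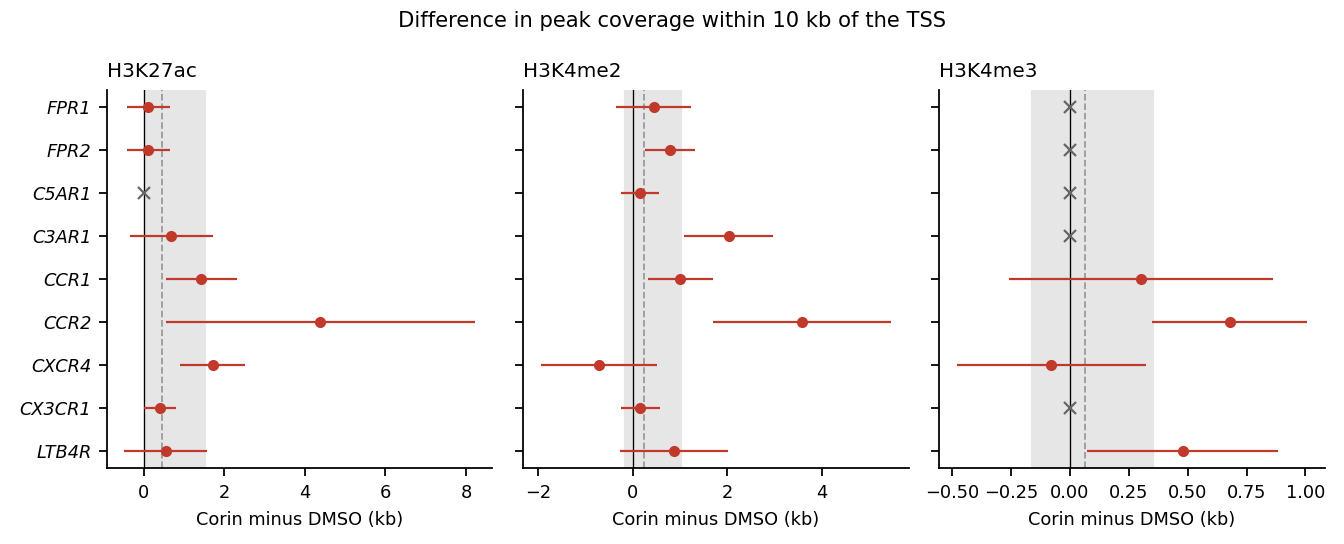
Corin minus DMSO difference in coverage (x axis, kb) for each receptor gene (y axis) with its limma 95% interval. The dashed line is the median of all covered genes, the grey band runs from their 10th to their 90th percentile, and crosses mark genes with no coverage; CCR2 and C3AR1 lie right of the band for H3K4me2 and CXCR4 lies left of it.

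CCR2, the receptor for CCL2 that brings monocytes out of the marrow, had the largest differences of the 9 genes in all 3 marks when unscaled bp within 10 kb were compared over all libraries. Without Corin replicate 1 its H3K27ac difference was below the 1885 bp of CXCR4, and within 1 kb of the TSS other receptor genes had larger differences in H3K27ac and H3K4me2. Scaled to total covered length, its H3K27ac difference was 932.7 bp, with overlap and below the 1180 bp of CXCR4, and its H3K4me2 difference was 1888.6 bp, smaller in size than the -2237.6 bp of CXCR4. H3K27ac within 10 kb of its TSS covered 10049 and 4878 bp in the Corin libraries and 2822 and 3337 bp in the DMSO libraries. The Corin libraries lay above both DMSO libraries but differed widely from each other, with means of 7463.5 ± 3660 bp and 3079.5 ± 364 bp (SD, n = 2). The difference was 4384 bp (limma 95% interval 544 to 8224 bp), a 2.42-fold higher mean, with an adjusted p of 0.184 by limma and 0.00231 with the replicate block. As large a difference was seen at 44 of 10666 covered genes. It rested on Corin replicate 1 in size: without that library it was 1798.5 bp (limma adjusted p of 0.262), and without Corin replicate 2 it was 6969.5 bp (0.045). At a matched number of peaks the groups overlapped, at 9322 and 3088 bp against 2822 and 3337 bp. Over all peaks, the replicate pairs differed by 7227 and 1541 bp. The blocked H3K27ac p-value takes its spread from all genes and does not reflect that gap.

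H3K4me2 at CCR2 covered 9739 and 7515 bp after Corin, against 5075 and 5020 bp after DMSO, with no overlap between the groups. The difference of 3579.5 bp (95% interval 1701 to 5458 bp, 1.71-fold) was matched or exceeded at 14 of 14251 covered genes, CCR2 included. Its adjusted p was 0.133 by limma and 0.0028 with the block, and at a matched number of peaks the difference was 3355 bp. H3K4me3 covered 805 and 792 bp after Corin, against 0 and 239 bp after DMSO, a narrow peak that lay on the TSS in both Corin libraries. DMSO replicate 1 had no H3K4me3 peak there, and that of DMSO replicate 2 began at +154 bp, off the TSS. The difference was 679 bp (95% interval 350 to 1008 bp, limma adjusted p of 0.487).

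For H3K27ac and H3K4me2, unlike H3K4me3, most of the difference at CCR2 lay more than 1 kb from its start. Within 1 kb of the TSS, H3K27ac covered 1427 and 1309 bp after Corin, against 1139 and 1372 bp after DMSO, and H3K4me2 1451 and 1444 bp against 1275 and 1436 bp. All 4 H3K4me2 libraries shared a stretch from -274 to +3069 bp of the TSS. The widest H3K4me2 stretch held by both Corin libraries and no DMSO library ran from +4313 to +5402 bp, 1090 bp over the 3′ part of the gene. For H3K27ac the widest such stretch was upstream, from -3683 to -3193 bp. The CCR2 promoter is printed because it carried H3K4me3 over its TSS in both Corin libraries and neither DMSO library. It runs from 250 bases before to 50 bases after the start in RefSeq (GRCh38.p14), chr3:46353861-46354160 on the plus strand, 5′ to 3′, with motif matches in capitals.
CCR2 promoter: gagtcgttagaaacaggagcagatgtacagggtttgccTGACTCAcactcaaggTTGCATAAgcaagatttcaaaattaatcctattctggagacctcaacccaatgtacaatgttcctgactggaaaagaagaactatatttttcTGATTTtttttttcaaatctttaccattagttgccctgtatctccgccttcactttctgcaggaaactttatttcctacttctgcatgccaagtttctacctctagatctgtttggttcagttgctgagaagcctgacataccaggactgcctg

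Among the 6 motifs searched on both strands of each 300-base promoter, CCR2 matched the C/EBP motif TTGCNNAA (in 10.5% of 34796 RefSeq promoters), the AP-1 motif TGANTCA (7.73%) and the GFI1 core AAATCA (13.2%). GFI1 is a repressor known to recruit LSD1, and C/EBP factors are known regulators of myeloid genes. The other 3 motifs were GAGGAA for PU.1 (27.9%), TGTGGT for RUNX factors (13.1%) and GGGCGG for SP/KLF factors (44.9%). A match describes letters only, and binding was not measured. The promoter has 2 CpG dinucleotides, beside a median of 14 over RefSeq promoters.

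CCR1, a receptor for CCL3 and CCL5 on monocytes, lies inside an intron of an annotated CCR3 transcript, 146 kb from CCR2. H3K27ac within 10 kb of its TSS covered 2058 and 1803 bp after Corin, against 199 and 813 bp after DMSO. Both Corin values lay well above either DMSO value, and the means were 1930.5 ± 180 and 506 ± 434 bp (SD, n = 2). The difference was 1424.5 bp (95% interval 545 to 2304 bp, 3.82-fold), with an adjusted p of 0.135 by limma and 0.00818 with the block. It was 771 bp at a matched number of peaks and 749 bp when scaled to total covered length, both without overlap.

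H3K4me2 at CCR1 covered 4057 and 4069 bp after Corin, against 3049 and 3067 bp after DMSO, so libraries of a group differed by far less than the groups. The difference was 1005 bp (95% interval 314 to 1696 bp, limma adjusted p of 0.203, 0.185 with the block), and the same at a matched number of peaks. Scaled to total covered length it was 140.7 bp, and the groups overlapped. The widest added stretch lay at the 3′ end of the promoter peak, where 695 bp from +2060 to +2754 bp were under H3K4me2 in both Corin libraries and neither DMSO library. Corin replicate 2 alone held H3K4me3 at CCR1, 605 bp from the TSS onward.

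A second site lay upstream of CCR1, in the CCR3 intron. There H3K27ac peaks of 460 and 439 bp were present in both Corin libraries and neither DMSO library, -5.05 kb from the TSS, with scores of 74 and 174. H3K4me2 was already at this site in all 4 libraries, at 652 and 676 bp after Corin, against 449 and 632 bp after DMSO. The promoter and the shared part of the upstream site are printed because H3K27ac stood there in both Corin libraries and, upstream, in no DMSO library. The promoter is RefSeq GRCh38.p14, chr3:46208264-46208563, and the site is hg38, chr3:46213520-46213803, both on the minus strand, 5′ to 3′, with motif matches in capitals.
CCR1 promoter: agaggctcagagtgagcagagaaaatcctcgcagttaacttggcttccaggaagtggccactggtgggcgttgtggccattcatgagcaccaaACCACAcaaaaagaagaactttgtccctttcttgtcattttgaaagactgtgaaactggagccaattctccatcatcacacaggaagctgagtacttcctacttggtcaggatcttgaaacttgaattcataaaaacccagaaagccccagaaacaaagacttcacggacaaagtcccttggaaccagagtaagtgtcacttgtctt
CCR1 upstream H3K27ac stretch: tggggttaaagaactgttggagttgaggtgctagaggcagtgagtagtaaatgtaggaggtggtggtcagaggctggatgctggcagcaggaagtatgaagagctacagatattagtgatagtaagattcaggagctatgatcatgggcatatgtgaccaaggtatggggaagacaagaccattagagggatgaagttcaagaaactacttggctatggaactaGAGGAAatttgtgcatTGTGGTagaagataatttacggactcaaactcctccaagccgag

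The CCR1 promoter held 1 match to the RUNX motif TGTGGT and none to the other 5 motifs. The 284-base upstream stretch held a PU.1 motif GAGGAA and a RUNX motif TGTGGT. Of 32065 H3K27ac union regions read over 284 bases at their centres, 29.0% held GAGGAA and 18.4% held TGTGGT.

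**Figure D3:**
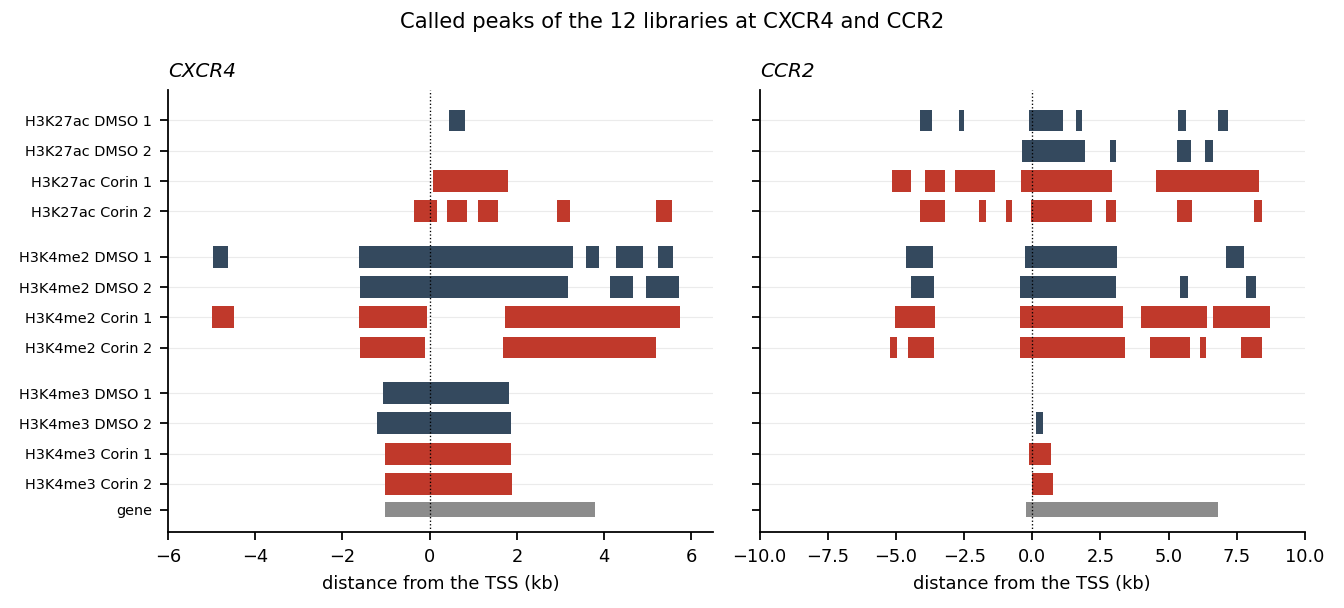
Called peaks at CXCR4 and CCR2 by distance from the TSS in kb (x axis, 5′ to 3′ of the gene), with a row for each of the 12 libraries (red, Corin; dark blue, DMSO; grey bar, gene). At CXCR4 the H3K4me2 peak across the TSS in both DMSO libraries is broken in both Corin libraries over a stretch of 1753 bp, where H3K4me3 is present in all 4 libraries.

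CXCR4, the receptor for CXCL12, was the only one of the 9 genes whose body had more H3K27ac and less H3K4me2 after Corin in unscaled bp, each without overlap. Of covered gene bodies, 53.4% were higher in H3K27ac and 4.76% lower in H3K4me2, and the share with both was not counted. H3K27ac within 10 kb of the CXCR4 TSS covered 1717 and 2071 bp after Corin, against 372 and 0 bp after DMSO. DMSO replicate 2 had no H3K27ac peak in the window and DMSO replicate 1 had a single one, while both Corin libraries lay far above either. The difference was 1708 bp (95% interval 909 to 2507 bp), with an adjusted p of 0.116 by limma and 0.000414 with the block. It was 1130.5 bp at a matched number of peaks, with 1717 and 916 bp against 372 and 0 bp.

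H3K4me2 at CXCR4 went the other way close to the start. In the DMSO libraries a single H3K4me2 peak crossed the TSS, from -1610 to +3282 bp in replicate 1 and from -1602 to +3176 bp in replicate 2. In Corin replicate 1 the peaks ran from -1617 to -71 bp and from +1718 to +5732 bp, and in Corin replicate 2 from -1589 to -102 bp and from +1683 to +5200 bp. The upstream edge thus lay at nearly the same place in all 4 libraries, while the middle was called only after DMSO. The stretch called in both DMSO libraries and no Corin library was 1753 bp wide, chr2:136116467-136118219 on hg38, from -70 to +1682 bp of the TSS.

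This gap was not empty of other marks. H3K4me3 covered all 1753 bp of it in each of the 4 H3K4me3 libraries, and H3K27ac covered 1597 and 1155 bp of it after Corin and 372 and 0 bp after DMSO. The H3K4me3 peak over the promoter was 2903 and 2915 bp wide after Corin and 2888 and 3087 bp after DMSO, and its groups overlapped (difference -78.5 bp, 95% interval -480 to 323 bp). The peak lists hold positions and a score, so how far the H3K4me2 signal fell in the gap cannot be read from them.

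The window of 1 kb either side of the TSS was added after the CXCR4 peaks had been seen. In it, H3K4me2 covered 930 and 899 bp after Corin and 2001 and 2001 bp, the whole window, after DMSO. The difference was -1086.5 bp (95% interval -1396 to -777 bp, limma unadjusted p of 0.00124 and adjusted p of 0.336). Of 12742 covered genes, 11.5% were lower without overlap in this window, and 1 gene besides CXCR4, RPL36AL, had as large a fall. Over the CXCR4 gene body H3K4me2 covered 3041 and 3045 bp after Corin, against 4537 and 4205 bp after DMSO, a difference of -1328 bp (95% interval -1998 to -658 bp, limma adjusted p of 0.151) that no other of 14334 covered genes reached. Within 10 kb the groups overlapped, at 6079 and 5006 bp against 6484 and 6044 bp, where the Corin libraries had a continuous peak downstream of the gap and the DMSO libraries had the end of the TSS peak and smaller separate ones. That difference of -721.5 bp (95% interval -1949 to 506 bp) became 74 bp when only peaks with a score of at least 100 were counted, -185 bp without Corin replicate 2 and -1258 bp without Corin replicate 1. Scaled to total covered length, the 10 kb difference was -2237.6 bp without overlap (95% interval -3421 to -1054 bp, limma adjusted p of 0.149). On that scale 46.1% of covered genes were lower.

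The CXCR4 promoter is printed because its last bases open the gap, which begins -70 bp from the TSS. It is RefSeq GRCh38.p14, chr2:136118100-136118399 on the minus strand, 5′ to 3′, with motif matches in capitals.
CXCR4 promoter: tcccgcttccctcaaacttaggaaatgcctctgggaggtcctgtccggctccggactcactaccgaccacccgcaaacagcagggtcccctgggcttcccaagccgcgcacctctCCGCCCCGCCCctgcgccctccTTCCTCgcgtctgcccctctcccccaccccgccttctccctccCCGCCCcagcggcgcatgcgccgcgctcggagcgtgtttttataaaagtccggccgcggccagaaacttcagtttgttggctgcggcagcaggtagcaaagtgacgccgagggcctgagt

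It held 3 matches to GGGCGG, of which the first and second overlap by 1 base, and 1 to GAGGAA, all read on the opposite strand. It had 27 CpG dinucleotides and 66.7% G and C, where the other 8 receptor promoters had 0 to 10 CpG. CXCR4 was the single receptor promoter of the 9 with GGGCGG. The stretches searched for LTB4R and CX3CR1 did not include their TSS used for coverage, so the sequence at those starts was not compared.

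CX3CR1, the fractalkine receptor of patrolling monocytes, had H3K27ac in both Corin libraries and neither DMSO library. Coverage within 10 kb was 505 and 309 bp after Corin, against 0 and 0 bp after DMSO, all of it in peaks that began upstream of the TSS. The difference was 407 bp (95% interval 13 to 801 bp, limma adjusted p of 0.208), below the median of covered genes. These peaks had scores of 80 and 63, and at a matched number of peaks CX3CR1 had no H3K27ac in any library. H3K4me2 sat at the same place in all 4 libraries, at 773 and 663 bp after Corin, against 499 and 618 bp after DMSO (difference 159.5 bp, 95% interval -259 to 578 bp). It was 4.2 bp with overlap when scaled to total covered length, 104.5 bp without Corin replicate 1 and 100 bp without DMSO replicate 1.

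Of the complement receptor genes, C3AR1 showed a wider difference than C5AR1. C3AR1 encodes the C3a receptor of myeloid cells. Its H3K4me2 within 10 kb covered 3128 and 2761 bp after Corin, against 422 and 1420 bp after DMSO. The groups did not overlap, and the difference was 2023.5 bp (95% interval 1085 to 2962 bp, 3.2-fold), with an adjusted p of 0.118 by limma and 0.00261 with the block. As large a difference was found at 1.71% of covered genes, and it was 1717.5 bp at a matched number of peaks.

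The H3K4me2 peak on the C3AR1 TSS was 755 and 944 bp wide after Corin and 422 and 452 bp after DMSO, so it was wider after Corin. The part held by both Corin libraries and neither DMSO library lay upstream, from -386 to -55 bp, while downstream the Corin libraries ended at +368 and +467 bp and the DMSO libraries at +367 and +409 bp. A further site in the intron, 0.745 kb downstream, had H3K4me2 in both Corin libraries and neither DMSO library, 357 and 301 bp. Sites at 7.5 kb and -4.13 kb held H3K4me2 in 3 of 4 libraries and lacked it in DMSO replicate 1. These sites set the DMSO libraries apart from each other. H3K27ac within 10 kb was 308 and 1533 bp after Corin, against 0 and 472 bp after DMSO, groups that overlapped, and no library had H3K27ac within 1 kb of the TSS. That difference of 684.5 bp was 72 bp without Corin replicate 2 and 1297 bp without Corin replicate 1. The promoter is printed because it carried H3K4me2 with no H3K27ac or H3K4me3 in any library. It is RefSeq GRCh38.p14, chr12:8066310-8066609 on the minus strand, 5′ to 3′, with motif matches in capitals.
C3AR1 promoter: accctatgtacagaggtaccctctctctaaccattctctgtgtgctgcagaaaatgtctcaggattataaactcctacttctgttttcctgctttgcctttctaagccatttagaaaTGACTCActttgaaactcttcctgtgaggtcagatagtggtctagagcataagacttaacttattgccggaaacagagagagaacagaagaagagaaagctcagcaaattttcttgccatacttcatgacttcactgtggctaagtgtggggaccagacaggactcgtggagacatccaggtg

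It matched TGANTCA once and no other motif, and it had 2 CpG dinucleotides. TGANTCA was found in 3 of 9 receptor promoters (FPR1, C3AR1 and CCR2), TGTGGT in 4 (FPR1, C5AR1, CCR1 and CX3CR1), GAGGAA in 3 (C5AR1, CXCR4 and CX3CR1), AAATCA in 2 (FPR1 and CCR2) and TTGCNNAA in 1 (CCR2). For CX3CR1 and LTB4R the RefSeq start lies -405 and 1605 bp from the TSS used for coverage. Their motif and CpG counts thus refer to stretches that do not include that TSS.

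C5AR1, the receptor for the anaphylatoxin C5a, was the barest of the 9 genes. Within 10 kb of its TSS it had 1 peak in the 12 libraries, 305 bp of H3K4me2 in Corin replicate 2 with a score of 72. Its annotated gene begins 19.8 kb upstream of the canonical TSS. Around that 5′ end H3K4me2 covered 841 and 650 bp after Corin, against 0 and 0 bp after DMSO (difference 745.5 bp, limma adjusted p of 0.129). All of it lay upstream of the annotated gene, whose body held only the 305 bp at the canonical TSS. The choice of start therefore decided whether C5AR1 was among the genes with more H3K4me2.

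FPR1 and FPR2, receptors for formylated peptides from bacteria and mitochondria, have TSSs 9.3 kb apart, so their windows share 10699 bp and are not independent. H3K27ac covered 295 and 410 bp after Corin, against 0 and 474 bp after DMSO in either window, and the groups overlapped. Without DMSO replicate 1 that difference of 115.5 bp became -121.5 bp, and at a matched number of peaks it became -237 bp. H3K4me2 covered 898 and 1094 bp after Corin, against 0 and 436 bp after DMSO at FPR2 (difference 778 bp, 95% interval 251 to 1305 bp, limma adjusted p of 0.2). At FPR1 it covered 223 and 1094 bp after Corin, against 0 and 436 bp after DMSO, with overlap.

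These peaks lay away from the FPR2 start: no library had any mark within 1 kb of it. The annotated 5′ end of FPR1 lies 52.2 kb from the canonical TSS. A peak on that 5′ end held H3K4me2 in all 4 libraries, 524 and 596 bp after Corin, against 528 and 530 bp after DMSO. Within 10 kb of it H3K4me2 covered 3436 and 3140 bp after Corin, against 2471 and 2683 bp after DMSO (difference 711 bp, limma adjusted p of 0.336), so FPR1 was higher without overlap there. Within 10 kb of the FPR2 5′ end the values were 223 and 1094 bp against 0 and 436 bp, and FPR2 was no longer higher without overlap. The choice of start thus changed the H3K4me2 call at both genes. Over the whole FPR1 body H3K4me2 covered 2180 and 2371 bp after Corin, against 633 and 1275 bp after DMSO, a difference of 1321.5 bp (95% interval 554 to 2089 bp, limma adjusted p of 0.169). An intronic site at -33.4 kb, with 405 and 339 bp of H3K4me2, was found in both Corin libraries and neither DMSO library.

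LTB4R, the high-affinity leukotriene B4 receptor, lies in a dense locus: the starts of LTB4R2 and CIDEB are -1.36 and -3.52 kb from its own, so its coverage is shared with theirs. H3K4me2 covered 6802 and 5875 bp after Corin, against 5357 and 5581 bp after DMSO, and filled the 1 kb either side of the TSS in all 4 libraries. H3K27ac covered 2347 and 2384 bp after Corin, against 1550 and 2092 bp after DMSO. Both marks were higher without overlap, with differences of 869.5 bp (95% interval -263 to 2002 bp) and 544.5 bp (-480 to 1569 bp), and both were lower after Corin when scaled to total covered length. The H3K4me2 difference was 406 bp without Corin replicate 1 and 1333 bp without Corin replicate 2, and that of H3K27ac was 273.5 bp without DMSO replicate 1. H3K4me3 covered 2652 and 2888 bp after Corin, against 2366 and 2217 bp after DMSO (difference 478.5 bp, 95% interval 72 to 885 bp, limma adjusted p of 0.646). Part of it was a separate H3K4me3 peak 1.44 kb downstream, 288 and 351 bp wide, in both Corin libraries and neither DMSO library.

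**Figure D4:**
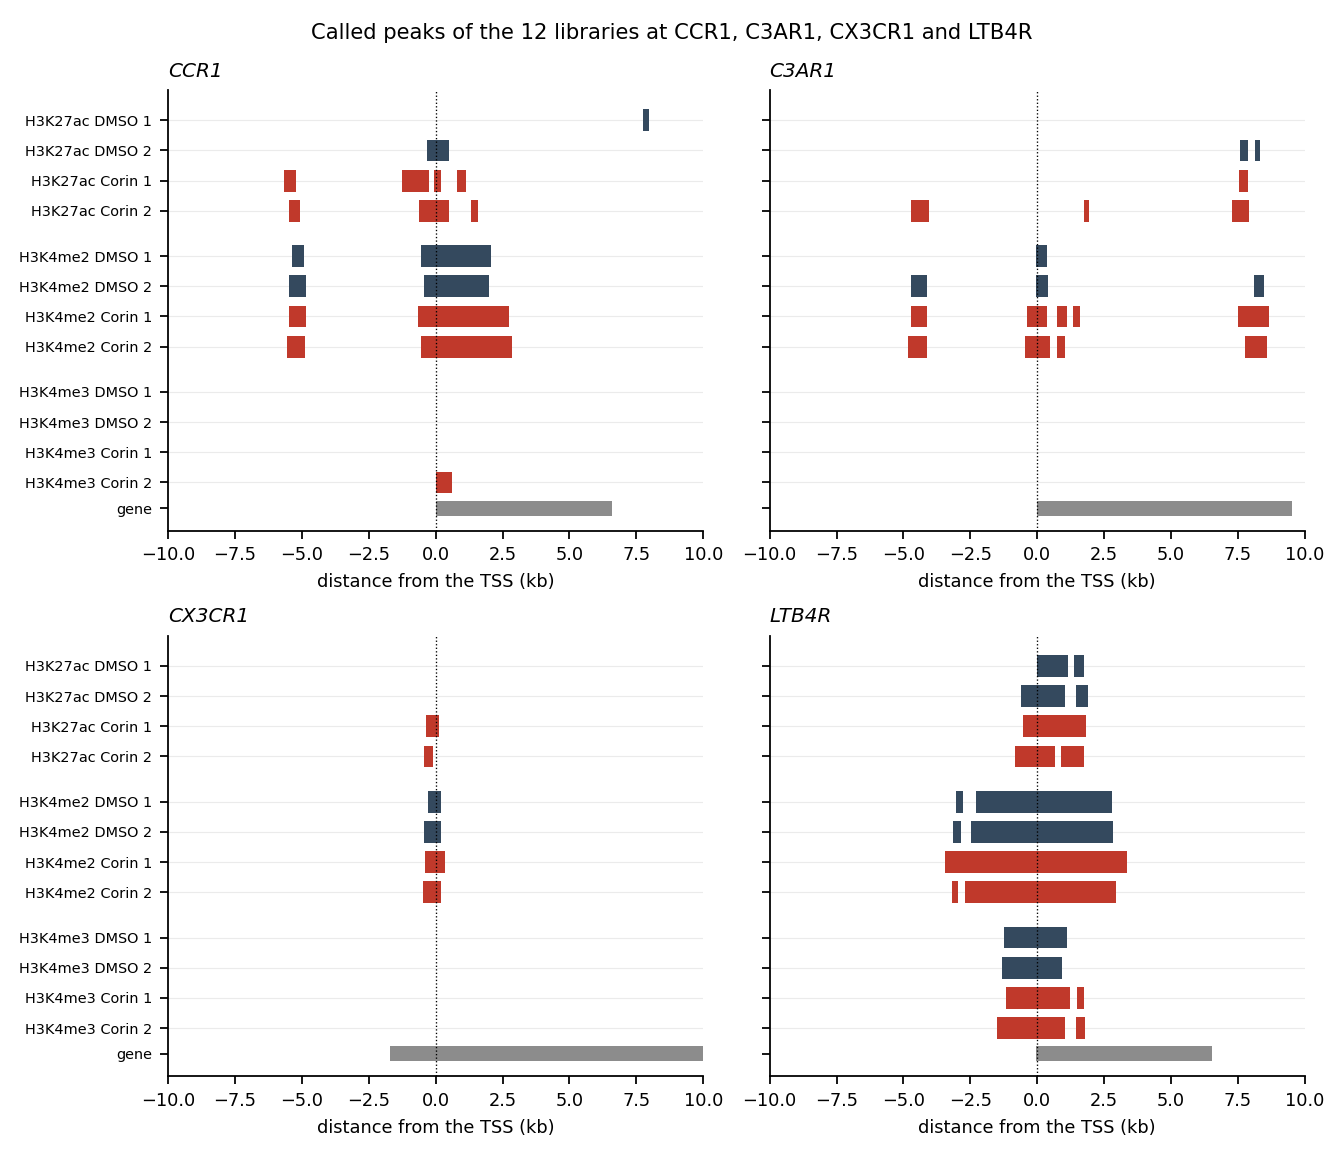
Called peaks at CCR1, C3AR1, CX3CR1 and LTB4R by distance from the TSS in kb (x axis, 5′ to 3′ of the gene), with a row for each of the 12 libraries (red, Corin; dark blue, DMSO; grey bar, gene). H3K27ac at CX3CR1 is in both Corin libraries only, H3K4me2 at the C3AR1 start is wider after Corin, and LTB4R is covered by all 3 marks in all libraries.

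Counted as union regions, merged over the 4 lists of a mark, the receptor genes held few that appeared or vanished outright. Gained regions had a peak in both Corin and in neither DMSO library, and lost regions had the reverse. Of 24 H3K27ac regions at the 9 genes, 2 were gained (CCR1 upstream and the CX3CR1 start) and 0 lost, where 11.5% and 0.18% of all H3K27ac regions were. Of 22 H3K4me2 regions 2 were gained (the FPR1 and C3AR1 intron sites) and 0 lost, against 9.64% and 0.158%, and 11 were in all 4 libraries, against 55.6%. Of 5 H3K4me3 regions 1 was gained (LTB4R) and 0 lost, against 1.5% and 0.29%. At a matched number of peaks no H3K27ac or H3K4me2 region of the 9 genes was gained, where 4.49% and 3.91% of all regions were.

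Added sequence was also counted as stretches within regions. Stretches of at least 100 bp under H3K4me2 in both Corin libraries and no DMSO library numbered 14 at 6 of the genes and summed to 4752 bp, and the CXCR4 gap was the only stretch with the opposite pattern. Over the whole genome 14745 H3K4me2 stretches were in both Corin libraries only and 1201 in both DMSO libraries only. For H3K27ac there were 10 added stretches at 5 genes, 2853 bp in all, and none with the opposite pattern, beside 13442 and 370 over the genome. For H3K4me3 there were 3, 755 bp in all, at CCR2 and LTB4R, and none with the opposite pattern, beside 1500 and 471. The receptor genes thus had mostly added stretches in marks where most one-sided stretches of the genome were added ones, 92.5% for H3K4me2, 97.3% for H3K27ac and 76.1% for H3K4me3.

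Over gene bodies the calls differed from those in the 10 kb window at CCR2 for H3K27ac, at FPR1 and CXCR4 for H3K4me2 and at CXCR4 for H3K4me3. H3K27ac was higher without overlap at 4 of 9 bodies (CCR1, CXCR4, CX3CR1 and LTB4R), where 53.4% of covered gene bodies were. CCR2 dropped out, since its body held 5479 and 3172 bp after Corin, against 1813 and 3213 bp after DMSO. H3K4me2 was higher at 7 of 9 and lower at CXCR4, against 39.7% and 4.76%. The annotated FPR2 body lies wholly inside that of FPR1, so the FPR2 peaks count for both genes. H3K4me3 was higher at 3 of 9 (CCR2, CXCR4 and LTB4R), against 23.5%, with a difference at CXCR4 of 29 bp (95% interval -246 to 304 bp). Covered bodies among the 9 numbered 8 for H3K27ac, 9 for H3K4me2 and 4 for H3K4me3.

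Other genes of the pathway were counted from lists taken by function, and their counts stand beside the 54.5% of all covered genes that were higher in H3K27ac and the 39.6% in H3K4me2. Of 26 other chemoattractant receptor genes, 14 had any H3K4me2 coverage and 11 were higher without overlap, and 9 had H3K27ac coverage, of which 4 were higher. PTAFR, the receptor for platelet-activating factor, had 3346 and 2222 bp of H3K4me2 after Corin and 320 and 520 bp after DMSO (limma adjusted p of 0.0991). CMKLR1, the chemerin receptor, had 1457 and 1218 bp against 0 and 0 bp (limma adjusted p of 0.0721). CXCR2, a receptor for CXCL8, had 3043 and 3397 bp against 1560 and 2205 bp. None of these receptors passed the limma test.

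Of 28 genes for signalling and desensitization of these receptors, 24 had H3K27ac coverage and 19 were higher, 79.2% of those covered. All 28 had H3K4me2 coverage and 19 were higher, 67.9%. None was lower in either mark or passed the limma test. GNAI2, the main inhibitory G protein alpha subunit of leukocytes, had 6008 and 6322 bp of H3K27ac after Corin and 2037 and 1466 bp after DMSO (limma adjusted p of 0.116). ARRB1, an arrestin, had 6083 and 6121 bp against 866 and 2662 bp. PIK3R6, a regulatory subunit of the phosphoinositide 3-kinase that G protein beta-gamma dimers activate, had 3205 and 3738 bp of H3K4me2 against 1396 and 1207 bp (limma adjusted p of 0.0721). Of these 28 genes, 27 had H3K4me2 at the promoter in all 4 libraries, beside 6 of the 9 receptor genes and 58.9% of all genes. This difference between lists was not tested.

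Of 12 genes that encode ligands of these receptors or enzymes that make them, 8 had H3K4me2 coverage and all 8 were higher, a small list in a mark that was higher at 39.6% of covered genes. For H3K27ac 6 were covered and 4 were higher, beside the 54.5%, and none passed the limma test. CCL2, the ligand of CCR2, had 3241 and 3054 bp of H3K4me2 after Corin and 367 and 290 bp after DMSO. Its difference of 2819 bp (limma SE 220.2 bp) passed the test, with a limma adjusted p of 0.0433. It did not pass at a matched number of peaks (2269.5 bp, 0.232), at a score of at least 100 (0.155), on log2 values (0.0854), in the 5 kb (0.136) or 1 kb window (0.373) or over the gene body (0.317). Without any 1 library the limma adjusted p was 0.297 to 0.645, and it was 0.00906 when scaled to total covered length and 6.3e-05 with the block. The receptor CCR2 thus had more H3K4me2 in the same libraries as its ligand, without passing that test itself. LTA4H, which makes the leukotriene B4 that LTB4R binds, had 4132 and 3356 bp against 1472 and 2140 bp, and ANXA1, a ligand of FPR2, had 4114 and 2771 bp against 1460 and 1368 bp.

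Among all protein-coding genes, the 3 whose coverage over the 12 libraries was nearest to that of CCR2, by Euclidean distance in bp, were GPR183 (2413 bp), TNS3 (3660 bp) and TIFAB (4018 bp). GPR183, a receptor for oxysterols that also guides migration, had 9092 and 5417 bp of H3K27ac after Corin and 1734 and 3493 bp after DMSO. Unlike CCR2 it had no H3K4me3 coverage in any library.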

How the data were processed

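Peak lists of 12 CUT&RUN libraries were used, 1 list per library, 292523 peaks in all. Per the submitters' processing notes, the tools include Trim Galore, Bowtie2, Picard and MACS2 and the build is GRCh38 (hg38). Settings, controls and the calling threshold are not given in the sources used here. Each peak carries a deposited score, a whole number from 50 upward whose meaning the sources used here do not give, and peaks were ranked or filtered by it within their own list only. No input or IgG control entered any comparison.

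Peaks were merged per library and the bp covered were summed for 20020 protein-coding genes (GENCODE release 44) around the TSS of the canonical transcript and over gene bodies. Which start to use was settled after coverage around the gene 5′ end had been seen, and that 5′ end is kept as an alternative. Per mark, 2 Corin were compared with 2 DMSO libraries by whether the groups overlapped and with limma 3.58.1 in R 4.3.3 (trend, Benjamini-Hochberg adjustment over all covered genes), tested on simulated data. Nothing in the labels says that replicates were separate cultures, so p-values measure only the spread between these libraries. Libraries with the same replicate number deviated together from their group means (correlations of 0.295 for H3K27ac, 0.314 for H3K4me2 and 0.234 for H3K4me3), and the numbers were taken to pair the libraries. What a number stands for is not in the labels. That blocked fit leaves 1 residual degree of freedom per gene and leans on the spread pooled over genes. For H3K27ac its p-values follow a normal distribution, so the pooled spread sets them and a gene's own spread adds nearly nothing. Alternatives were a matched number of peaks, a score of at least 100, scaling to covered length, a 5 kb window, log2 values with a pseudocount of 100 bp, a mean of at least 500 bp, the block and leaving out each library; the gene 5′ end and the 1 kb window were listed as alternatives after seeing the data.

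The members and lists were chosen with earlier results of these data known. Genes of other lists were named by rule, the 3 with the largest difference without overlap per list and mark, for H3K27ac and H3K4me2, of which some are printed; RPL36AL was named after its value was seen. Promoter sequences are from RefSeq, GRCh38.p14, where all 9 genes matched by symbol.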

Additional observations from a re-analysis of the deposited data

Results flagged for a closer look

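In unscaled bp over the gene body and the 1 kb window, CXCR4 alone of the 9 genes had marks that differed in opposite directions without overlap. Over its gene body H3K27ac was 1529.5 bp higher and H3K4me3 29 bp higher in the Corin libraries, while the H3K4me2 difference was -1328 bp. Within 1 kb of its TSS H3K27ac was 756.5 bp higher and the H3K4me2 difference was -1086.5 bp. In each case both Corin libraries of a mark lay on the same side of both DMSO libraries, and the sides differed between marks. The difference between marks was not tested. Taken singly, 53.4% of covered gene bodies were higher in H3K27ac and 4.76% lower in H3K4me2. Within 1 kb of the TSS these shares were 45.0% and 11.5%. The share of all genes with both was not counted. Scaled to total covered length, LTB4R also had opposite signs within 10 kb of its TSS, at -856.8 bp for H3K27ac, -597.5 bp for H3K4me2 and 338.1 bp for H3K4me3. The fold over which the H3K4me2 signal itself changed is not in the peak lists.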

How the results depend on the processing

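Of 272 recomputed differences for the 21 gene and mark pairs, 251 kept their direction and their side of the limma threshold. Pairs left without coverage by a setting, such as H3K27ac at CX3CR1 at a matched number of peaks, were not among the 272. No pair had passed limma at first, and the block and the mean filter leave the bp difference unchanged. Counted as kept were H3K4me2 at LTB4R and H3K4me3 at CXCR4 in the 1 kb window, both 0 bp. At a matched number of peaks the H3K27ac difference became -237 bp at FPR1 and FPR2 and -139 bp at C3AR1, and the H3K27ac median 0 bp over the 9 genes, with 3 genes higher for H3K27ac. Gained regions then numbered 0 for H3K27ac and 0 for H3K4me2. Scaled to covered length, H3K27ac became -52.8 bp at FPR1 and FPR2 and -856.8 bp at LTB4R, and H3K4me2 -597.5 bp at LTB4R. Higher and lower genes then numbered 3 and 1 for H3K27ac and 3 and 2 for H3K4me2 (median 144.2 bp), and 1 was lower for H3K4me3 (19.9% of covered genes). At a score of at least 100, the H3K27ac median was 0 bp, CXCR4 H3K4me2 became 74 bp, and gained regions numbered 1 for H3K4me2 and 2 for H3K4me3 (9.53% and 1.42% of all regions). Over gene bodies 1 gene was lower in H3K4me2, and CXCR4 H3K4me3 became 29 bp. In the 1 kb window 3 genes were higher in H3K27ac (median 147.5 bp), 1 was lower in H3K4me2 (median 121.5 bp) and 1 was higher in H3K4me3, where 45.0%, 11.5% and 18.9% of covered genes were. Of the 9 receptor genes, 6, 8 and 4 were covered in that window. With regions counted only where a library covered at least 50%, gained regions numbered 5, 5 and 2, where 15.1%, 13.7% and 2.18% of all regions were gained.

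Among genes with a mean of at least 500 bp, 358 of 7271 (4.92%) were called for H3K27ac, with 1 of 5 receptor genes, CXCR4 (limma adjusted p of 0.0379). With the replicate block, limma passed 3 receptor genes for H3K27ac and 2 for H3K4me2, and 1 (CXCR4) was lower in both pairs for H3K4me2 (7.52% of covered genes); 1458 and 660 genes were called in place of 0 and 20. Higher in both pairs were 6 genes for H3K27ac, with C3AR1 added, and 7 for H3K4me2, with FPR1 added (65.8% and 49.8% of covered genes). No other limma call changed under the block.

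Leaving out 1 library at a time, the genes passing limma for H3K27ac ranged from 0 to 2. CX3CR1 passed without Corin replicate 1 (adjusted p of 0.0135), and CX3CR1 (0.00812) and CCR2 (6969.5 bp, 0.045) without Corin replicate 2, where 10.7% and 12.7% of covered genes were called, while CCR2 was at 1798.5 bp (0.262) without Corin replicate 1. H3K27ac counts ranged from 5 to 8 higher and 0 to 2 lower (63.2% to 80.9% and 1.97% to 7.15% of covered genes), with medians of 407 to 815.5 bp, and 4 to 8 regions gained and 0 to 1 lost (16.4% to 42.5% and 0.498% to 3.6% of all regions). The H3K27ac difference at FPR1 and FPR2 ranged from -121.5 bp (without DMSO replicate 1) to 352.5 bp, and CXCR4 H3K4me3 from -178 to 21 bp (without DMSO replicate 2). H3K4me2 had 0 to 1 genes lower (7.27% to 21.4%) and 2 to 6 regions gained (12.8% to 22.6%), and H3K4me3 0 to 1 lower (18.5% to 26.6%) and 1 to 2 gained (2.26% to 5.52%). The lone library left in a group is assumed to vary like the others. The causes of these shifts were not tested. With 2 libraries a group and no reads, small differences were not resolved, and a missing peak does not show that a mark is absent.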
